A study of Homo sapiens with 27 samples.

Results

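Oxidative phosphorylation genes were taken by name from the gene tables of a Poly(A)-ClickSeq (PAC-seq) experiment in 3 prostate cancer cell lines. PAC-seq reads are meant to mark the 3′ ends of polyadenylated RNA, and so poly(A) sites in use. Reads primed at A-rich sequence inside a transcript can also be counted. Symbols that begin with NDUF, UQCR, COX4 to COX8, ATP5 or MT-, together with SDHA, SDHB, SDHC, SDHD and CYC1, gave 111 of the 20268 genes in the tables. Of these, 98 are nuclear genes and 13 are encoded by the mitochondrial genome. The nuclear genes comprised 37 complex I subunits, 7 complex I assembly factors (the NDUFAF genes), 4 complex II, 9 complex III, 16 complex IV and 15 complex V subunits. The other 10 were NDUFA4 and its paralog NDUFA4L2, the supercomplex factor COX7A2L, the subunit-like copies ATP5EP2, COX6A1P2 and ATP5L2, 2 read-through gene models, and ATP5S and ATP5SL. LNCaP cells are hormone-sensitive, while LNCaP95, a derivative of LNCaP, and 22Rv1 are hormone-insensitive. All were grown with serum, and for LNCaP95 the medium had no phenol red. In every line, stable pools carried a control short hairpin RNA (CTRL sh) or 1 of 2 hairpins against CPSF1 (CPSF1 sh1 and CPSF1 sh2), delivered by lentivirus and kept under puromycin, with 3 libraries in each of the 9 groups and 27 libraries in all. CPSF1 is part of the factor that recognizes the poly(A) signal and cleaves the nascent transcript, and the comparisons addressed how its knockdown moved poly(A) site usage of these genes within and beyond their 3′ untranslated regions (3′ UTRs).

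Oxidative phosphorylation is the route by which mitochondria make ATP. Complexes I to IV pass electrons from NADH and succinate to oxygen and pump protons across the inner membrane, and complex V, the ATP synthase, uses the proton gradient. Nuclear genes encode all subunits of complex II and most subunits of the other complexes, while the mitochondrial genome encodes a small core of complexes I, III, IV and V. Normal prostate epithelium is known for exporting citrate rather than oxidizing it, and prostate cancer cells for oxidizing more of it.

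All 13 mitochondrial genes were listed at 0 in all 27 libraries, in each table that held them. They were listed in the coding sequence (CDS) table and in the table of the 10 kb downstream regions, 5 of them in the intron table and none in the 3′ UTR table, which made 837 values, each 0. The 84 gene rows on other named sequences outside the assembled chromosomes were also at 0, whereas at least 53.1% of the genes of any autosome or the X chromosome had reads in the CDS table. A value of 0 here is therefore no measure of mitochondrial transcripts, and a contrast between nuclear and mitochondrial genes could not be measured. The results below are those of the 98 nuclear genes.

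The libraries held 3452413 to 12425417 reads over the 4 tables (3′ UTR, intron, CDS and 10 kb downstream), the fewest in 22Rv1 CTRL sh replicate 1, and the nuclear genes took 1.32% to 2.17% of them. These are sums, and a read in a stretch annotated as both 3′ UTR and CDS can count in each. NDUFAF2, for example, held 43653 reads in the 3′ UTR and 42175 in CDS. Such overlap was not tested. CPSF1 was lower after knockdown in every line. Levels are given in CPM (reads scaled to a common library size). For CPSF1 and the marker genes, reads over all tables were scaled by library size alone, without edgeR's scaling factors. In LNCaP CPSF1 stood at 70.2 to 83.3 CPM in the 3 control and 34.6 to 50.8 CPM in the 6 knockdown libraries. The levels were 45.3 to 64.2 against 23.7 to 37.6 CPM in LNCaP95, and 82.4 to 101 against 57.4 to 68.0 CPM in 22Rv1. All 7 luminal prostate and all 4 epithelial marker genes, and 2 of 3 fibroblast markers, were above 2 CPM in every library of every group, while none of the 3 basal or 3 blood markers was so in any group. The luminal markers, summed, moved with knockdown, from 3145 to 3663 CPM in control to 2224 to 2634 CPM in knockdown libraries of LNCaP, from 5733 to 5788 to 3679 to 4252 CPM in LNCaP95, and from 1834 to 2149 to 2167 to 2426 CPM in 22Rv1. Other summed lists also moved without overlap between control and knockdown libraries. The epithelial markers went from 732 to 819 to between 652 and 707 CPM and the fibroblast markers from 14.8 to 18.6 to between 21.0 and 25.3 CPM in 22Rv1, the basal markers rose to at most 4.41 CPM in LNCaP and 5.45 CPM in 22Rv1, and the blood markers to at most 4.23 CPM in LNCaP95. The part of these lists in the results below was not tested.

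Over all reads of a gene, more nuclear genes rose than fell in LNCaP and more fell than rose in LNCaP95, while few were called in 22Rv1. In LNCaP 20 of 92 tested genes rose and 7 fell after CPSF1 knockdown, beside 14% and 13.5% of all genes tested. In LNCaP95 5 rose and 26 fell, beside 17.6% and 16.8%. In 22Rv1 3 rose and 3 fell, beside 4.58% and 2.99%. These calls are from edgeR's quasi-likelihood test of 3 control against 6 knockdown libraries, with Benjamini-Hochberg adjustment over all genes and a threshold of 0.05. The median log2 fold change of the 92 genes was 0.18 in LNCaP, with 70 above 0, -0.23 in LNCaP95, with 15 above 0, and -0.12 in 22Rv1, with 19 above 0, while the median over all genes was 0.02, 0.01 and 0.00. Fewer cells of a type and less RNA per cell cannot be told apart in these bulk libraries.

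The LNCaP count depended on the hairpin. With CPSF1 sh1 alone 37 genes rose and 6 fell, and with CPSF1 sh2 alone 5 rose and 7 fell, a difference between hairpins that was not tested. In LNCaP95 the hairpins alone gave 4 higher and 19 lower genes with sh1, and 6 higher and 29 lower with sh2. Without library scaling by TMM factors the split in LNCaP95 was 6 higher and 16 lower, and in 22Rv1 5 higher and 1 lower. Without LNCaP CTRL sh replicate 1, 2 or 3 the number called in LNCaP was 10, 17 and 14, and without 22Rv1 CTRL sh replicate 1 it was 17 in 22Rv1. These counts are of members only. The share of all genes called under each setting is not given beside them, so the changes cannot be called particular to these genes.

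By complex, 11 of 37 complex I subunits rose in LNCaP and 4 fell. In LNCaP95 none rose and 12 fell, and in 22Rv1 no complex I subunit was called. For comparison, LNCaP had 14% of all tested genes higher and 13.5% lower. LNCaP95 had 17.6% higher and 16.8% lower, and 22Rv1 had 4.58% higher and 2.99% lower. Whether the counts of any complex depart from these shares was not tested. NDUFS1, the largest complex I subunit, rose in LNCaP, by a log2 fold change of 0.40 ± 0.11 (SE; adjusted p = 0.010). Of the small accessory subunits, NDUFB3 rose in LNCaP by 0.78 ± 0.21. NDUFA3 fell in LNCaP by 0.49 and in LNCaP95 by 0.87 on the log2 scale. In complex V, 3 of 15 subunits rose and 1 fell in LNCaP, none rose and 3 fell in LNCaP95, and 1 fell in 22Rv1, and not 1 of the 15 fold changes was above 0 in LNCaP95 or in 22Rv1. ATP5B, the catalytic beta subunit, rose in LNCaP by 0.41 ± 0.12 (adjusted p = 0.015). In complex III, 2 of 9 subunits rose and 1 fell in LNCaP, and 4 fell in LNCaP95, among them CYC1, cytochrome c1, by 0.40 on the log2 scale. In complex IV, 1 of 11 tested subunits rose in LNCaP, 1 rose and 2 fell in LNCaP95, and none was called in 22Rv1, where all 11 fold changes were below 0. Of the 4 complex II subunits, SDHD, a membrane anchor, rose in LNCaP by 0.58 ± 0.16 and in LNCaP95 by 0.64 ± 0.16, and SDHA, the flavoprotein, fell in LNCaP95 by 0.57 on the log2 scale. Of the 15384 reads of SDHD over all libraries, 9212 were counted in the 3′ UTR and 5140 in introns. Its 3′ UTR reads alone were called in no line.

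**Figure D1:**
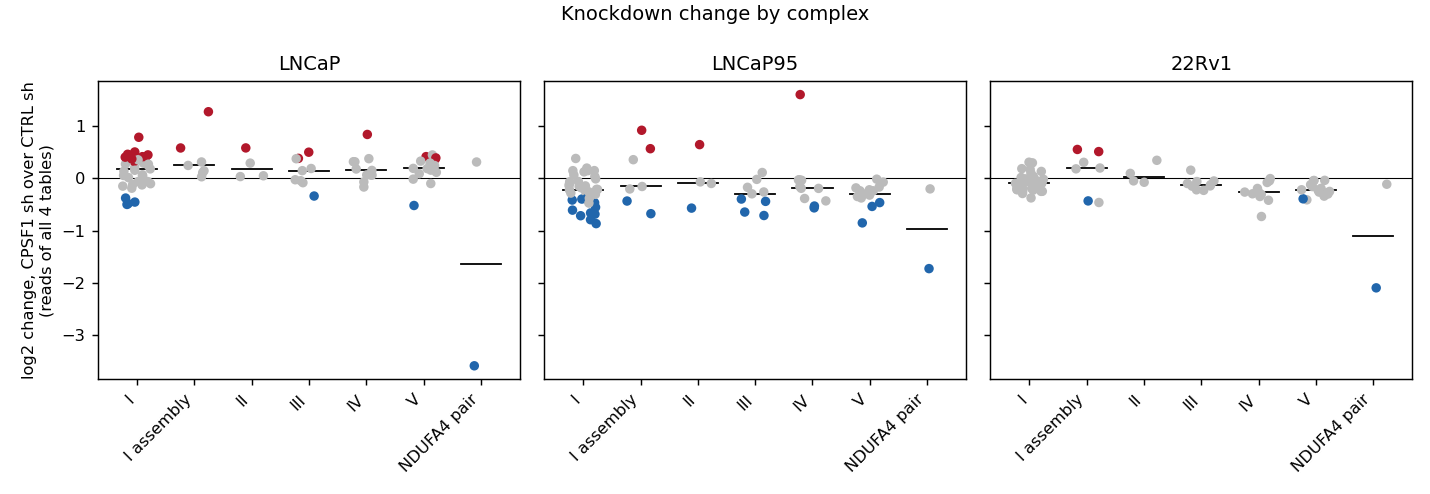
Log2 fold change of all PAC-seq reads after CPSF1 knockdown (y axis) for the tested nuclear genes, grouped by complex (x axis) in LNCaP, LNCaP95 and 22Rv1. Red points rose, blue points fell, grey points did not pass the test and bars are medians; most points of complexes I and V lie above 0 in LNCaP and below 0 in LNCaP95 and 22Rv1, and NDUFA4L2 lies below all others of its group in each panel.

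The assembly factors of complex I help to build the enzyme and are not part of its finished form. Of 7, 2 rose in LNCaP, 2 rose and 2 fell in LNCaP95, and 2 rose and 1 fell in 22Rv1. The shares of all genes higher and lower were 14% and 13.5%, 17.6% and 16.8%, and 4.58% and 2.99% in the same order. NDUFAF4 rose over all reads by 1.27 ± 0.16 in LNCaP (adjusted p = 1.6e-05) and by 0.91 ± 0.21 in LNCaP95 (adjusted p = 0.0020). NDUFAF6 rose by 0.56 ± 0.14 in LNCaP95 and by 0.55 ± 0.09 in 22Rv1, and NDUFAF1 fell by 0.44 and 0.43 on the log2 scale in the same lines. COX7B2, a paralog of the complex IV subunit gene COX7B known from testis, rose from 1.89, 2.96 and 2.24 CPM in LNCaP95 controls to between 3.89 and 9.73 CPM in the 6 knockdown libraries, by 1.59 ± 0.32. In LNCaP the groups did not overlap either (3.19 to 5.06 against 5.74 to 8.04 CPM), with a rise of 0.83 ± 0.24 that did not pass with sh2 alone. Most reads of COX7B2 lay in introns, 698 of 930 over all libraries, with 141 in the 3′ UTR. In introns alone it rose by 1.02 ± 0.28 in LNCaP and 1.74 ± 0.34 in LNCaP95. For NDUFAF6, 10880 of 12895 reads were counted in introns and 1897 in the 3′ UTR. The read-through model NDUFC2-KCTD14, whose reads cannot be separated from those of the genes it joins, rose in LNCaP95 by 1.47 ± 0.41 and in 22Rv1 by 2.00 ± 0.26. All 848 reads of this model were intron reads. They can include the same reads as the 10 kb region of NDUFC2, and this overlap was not tested.

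In the 3′ UTR table, which holds most reads of these genes, NDUFA4L2 was the single member lower in all 3 lines, of 90 tested in each, beside 0.325% of all genes. NDUFA4L2 is the hypoxia-inducible paralog of NDUFA4, a small protein first assigned to complex I and now placed in complex IV. In LNCaP its 3′ UTR level was 101, 101 and 113 CPM in the 3 control libraries and 1.69, 3.10 and 10.9 CPM (lowest, median and highest of 6) after knockdown. In LNCaP95 the controls were at 59.5, 63.6 and 62.2 CPM and the knockdown libraries at 11.6, 15.5 and 27.2 CPM. In 22Rv1 the controls were at 18.8, 24.1 and 26.3 CPM and the knockdown libraries at 1.61, 3.19 and 8.34 CPM. The groups did not overlap in any line, and every knockdown library lay below every control library of its line. The log2 fold change was -4.45 ± 0.32 in LNCaP (adjusted p = 5.4e-08), -1.77 ± 0.22 in LNCaP95 (adjusted p = 1.2e-05) and -2.57 ± 0.36 in 22Rv1 (adjusted p = 0.0020). In 22Rv1 the call was lost with sh1 alone. The fall was larger in LNCaP than in LNCaP95, by a difference of 2.68 ± 0.49 (adjusted p = 0.00039), a line-by-knockdown term fitted over the 27 libraries. Against 22Rv1 the difference from LNCaP was 1.89 ± 0.55 (adjusted p = 0.035), which did not pass in DESeq2 or when the library sizes were summed over the 4 tables.

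NDUFA4 itself was called in no line. Its 3′ UTR level was 1182, 1171 and 1130 CPM in LNCaP controls and 1100, 1378 and 1436 CPM (lowest, median, highest) after knockdown, 1514, 1497 and 1464 against 1194, 1359 and 1582 CPM in LNCaP95, and 1571, 1967 and 1771 against 1580, 1825 and 1900 CPM in 22Rv1. The groups overlapped in each line, and the fold changes of 0.22 ± 0.11, -0.11 ± 0.12 and 0.01 ± 0.11 did not pass the test.

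**Figure D2:**
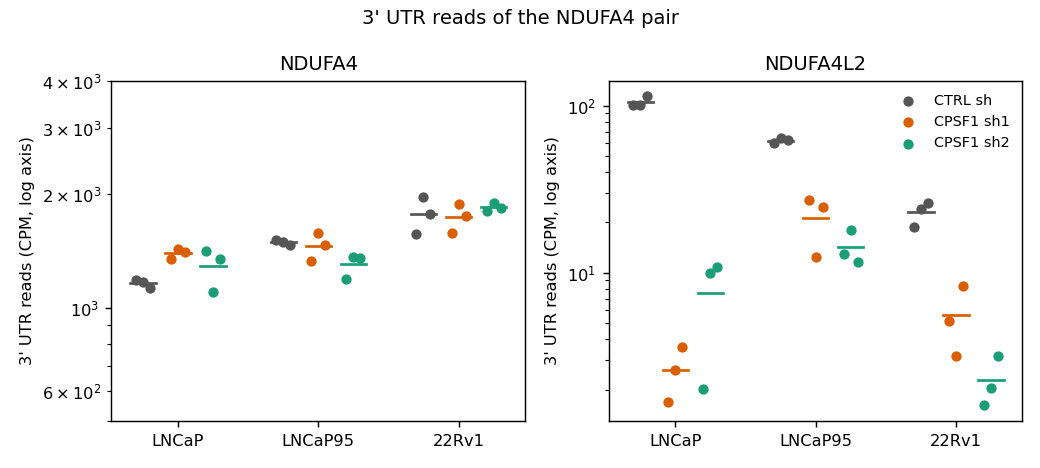
3′ UTR level in CPM (log axis) of NDUFA4L2 and NDUFA4 in each library, by line and by hairpin (x axis), with bars for group means. NDUFA4L2 in knockdown libraries lies below every control of its line, from 1.61 CPM in 22Rv1 to 27.2 CPM in LNCaP95, while the NDUFA4 groups overlap.

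Among the other members of the 3′ UTR table, 9 of 91 rose and 7 fell in LNCaP, NDUFA4L2 included, beside 8.24% and 10.1% of all genes. In LNCaP95 3 of 90 rose and 22 fell, beside 15.2% in either direction, and in 22Rv1 1 of 90 rose and 1 fell, beside 0.678% and 0.791%. The median fold change was 0.11, -0.18 and -0.05, against 0.02, 0.01 and -0.01 over all genes. The split in LNCaP was 19 higher and 7 lower with sh1 alone, 2 and 5 with sh2 alone, and 15 and 5 without TMM factors, and in LNCaP95 4 and 14 without TMM factors. Without LNCaP CTRL sh replicate 1, 2 or 3 there were 5, 8 and 10 calls in LNCaP, without LNCaP95 CTRL sh replicate 1 there were 16 in LNCaP95, and without 22Rv1 CTRL sh replicate 1 there were 4 in 22Rv1. For these alternatives, too, the share of all genes is not given beside the count of members.

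NDUFS5, an accessory complex I subunit, fell in LNCaP and LNCaP95. Its 3′ UTR level was 199, 208 and 194 CPM in LNCaP controls against 96.5, 118 and 151 CPM (lowest, median, highest) after knockdown, and 270, 282 and 288 against 115, 137 and 159 CPM in LNCaP95. The log2 fold change was -0.70 ± 0.14 (adjusted p = 0.0020) and -1.03 ± 0.13 (adjusted p = 1.4e-05). In 22Rv1 the levels were 145, 136 and 145 against 86.7, 109 and 127 CPM, which did not overlap, and the change of -0.40 ± 0.13 did not pass (adjusted p = 0.16). NDUFAF4 went the other way, from 19.7, 17.1 and 14.8 CPM in LNCaP controls to 31.5, 36.7 and 44.7 CPM, by 1.17 ± 0.18 (adjusted p = 0.00015), and from 13.8, 21.8 and 15.0 to 28.8, 33.7 and 52.7 CPM in LNCaP95, by 1.14 ± 0.21 (adjusted p = 0.00063). In 22Rv1 the NDUFAF4 groups overlapped. The other 2 members that rose in LNCaP95 were NDUFAF6 and the complex I subunit NDUFA8.

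The 3 genes for the c subunit of the ATP synthase, ATP5G1, ATP5G2 and ATP5G3, encode the same mature protein. ATP5G2 stood at 1119, 878 and 964 CPM in LNCaP controls and at 485, 623 and 752 CPM after knockdown, and at 853, 730 and 809 against 326, 419 and 521 CPM in LNCaP95. The fold changes were -0.65 ± 0.14 (adjusted p = 0.0030) and -0.87 ± 0.14 (adjusted p = 0.00017). ATP5G1 fell in LNCaP95, by 0.49 on the log2 scale (adjusted p = 0.038), and its difference between lines was not among those called. ATP5G3 passed in no line in the 3′ UTR table, at 0.30 ± 0.12, -0.24 ± 0.13 and -0.30 ± 0.12, yet its change in LNCaP differed from that in LNCaP95 (difference -0.53 ± 0.16, adjusted p = 0.030) and in 22Rv1 (difference -0.59 ± 0.16, adjusted p = 0.025). Over all reads ATP5G3 rose in LNCaP by 0.39 ± 0.12 and fell in 22Rv1 by 0.39 on the log2 scale. Of the core subunits fixed for each complex, NDUFS1 rose in the LNCaP 3′ UTR table by 0.47 ± 0.13 (adjusted p = 0.015). SDHB, UQCRC1, COX5B and ATP5B passed in no line, with fold changes between -0.20 and 0.33, nor did CYC1. UQCRFS1, the Rieske iron-sulfur protein, rose in LNCaP by 0.41 ± 0.13 (adjusted p = 0.039), a call lost with sh2 alone.

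NDUFAF3, a complex I assembly factor, moved in opposite directions in LNCaP95 and 22Rv1. Its 3′ UTR level fell in LNCaP95 from 237, 234 and 217 CPM to 116, 137 and 167 CPM (lowest, median, highest), and rose in 22Rv1 from 150, 153 and 151 CPM to 226, 237 and 250 CPM. Neither pair of groups overlapped. The fold changes were -0.70 ± 0.13 (adjusted p = 0.00067) and 0.64 ± 0.11 (adjusted p = 0.0061), and they differed by 1.35 ± 0.17 (adjusted p = 2.4e-06). In LNCaP the levels of 209 to 273 CPM and 183 to 250 CPM overlapped. NDUFAF3 was the 1 member that rose in the 22Rv1 3′ UTR table, and that call was lost with sh1 alone.

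Over the tables, knockdown changes differed between LNCaP95 and LNCaP for 6 members in the 3′ UTR table (1 in the direction of a higher value in LNCaP95 and 5 lower), beside 9.58% of all genes, for 3 of the 10 kb regions, beside 2.48%, and for 22 of 92 over all reads (1 higher, 21 lower), beside 16.7%. Between 22Rv1 and LNCaP the counts were 5 (5.11%), 2 (1%) and 8 (10.5%). Between 22Rv1 and LNCaP95 they were 8 (10.7%), 4 (4.15%) and 11 (15.5%). The 3 differences share libraries with each other. The direction of the 3′ UTR calls between 22Rv1 and LNCaP changed with the scaling, from 3 higher and 2 lower to none higher and 3 or 4 lower, and that between LNCaP95 and LNCaP became 1 higher and 1 lower without TMM factors. For 10 kb regions the splits also turned, between 22Rv1 and LNCaP95 from 2 higher and 2 lower to 1 and 4 or 0 and 5, and between LNCaP95 and LNCaP from 1 and 2 to 2 and 1 or 3 and 1.

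The 10 kb downstream regions follow annotated gene ends and for most members start where the extended 3′ UTR ends. For SDHD (chr11:111990653-112074827, 6 pieces) and UQCR11 (chr19:1568057-1596871, 4 pieces), as examples, the region overlaps the span of the gene's own 3′ UTR. That of ATP5G2 (chr12:54016211-54026210) lies apart from its 3′ UTR (chr12:54058650-54067541). Reads in such regions need not end just past the 3′ UTR. Of the reads of the nuclear genes, 1.60% to 1.99% fell in the 10 kb regions in LNCaP controls and 1.88% to 3.15% after knockdown, 0.933% to 1.17% against 1.66% to 3.29% in LNCaP95, and 1.39% to 2.24% against 2.26% to 2.77% in 22Rv1. Only in LNCaP did the groups overlap. Over all genes these shares were 3.48% to 4.98% in control and 5.10% to 7.40% in knockdown libraries.

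In LNCaP 10 of 82 tested members rose in the 10 kb table and 2 fell, beside 9.52% and 5.2% of all regions. In LNCaP95 23 of 87 rose and 11 fell, beside 17.6% and 10.1%, and in 22Rv1 8 of 86 rose and 4 fell, beside 7.26% and 2.73%. The median fold change of the members was 0.47, 0.68 and 0.24, against 0.13, 0.22 and 0.19 over all regions. These values are relative to the other 10 kb regions, since each table was scaled to itself. When library sizes summed over the 4 tables were used with the factors of the 3′ UTR table, the median over all regions moved to 0.62, 1.11 and 0.73, and 27 members rose and none fell in LNCaP, 44 rose and 1 fell in LNCaP95, and 19 rose and 1 fell in 22Rv1. Without TMM factors the splits were 33 and 0, 47 and 1, and 23 and 1. All 41 rises called over the 3 lines, and 2 of the 17 falls, also passed under both of these scalings. Because the scaling with 3′ UTR factors moved the median over all regions upward in each line, it favours rises and is no independent check of them.

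Of the 24 members that rose in the 10 kb table in any line, 7 did so in all 3, of 79 tested in all 3, beside 3.54% of all regions. They are ATP5A1, COX7C, NDUFS5, SDHD, UQCRB, UQCRC2 and UQCRH. The last 30 bases up to the annotated gene end, or up to 30 bases that hold the poly(A) signal when it lies further in, are shown in capitals at the signal AATAAA for 4 of them, to set their gene ends side by side. ATP5A1, not shown, also holds AATAAA. Neither AATAAA nor ATTAAA was found for SDHD and UQCRB in the window searched, at the outermost annotated 3′ UTR end. Other ends of a gene were not searched, and a 10 kb piece of SDHD starts well before that end. The stretches lie in GRCh37 at chr16:21994933-21994962 (UQCRC2, plus strand), chr1:46782419-46782448 (UQCRH, plus), chr1:39500260-39500289 (NDUFS5, plus) and chr5:85916750-85916779 (COX7C, plus).
UQCRC2: ttttgcAATAAAattatttccaaaaaacat
UQCRH: catctaAATAAAagttctatgatctgcaaa
NDUFS5: tgtaaaAATAAAggattgctccatcctatt
COX7C: tttatatAATAAAagggaaatacaaatcga

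Within the 50 bases before the annotated end, AATAAA was found on the gene's strand in 48 of 98 members (49.0%), against 11609 of 19540 genes (59.4%), and ATTAAA in 13 members without AATAAA (13.3%, against 13.5%). Of the 24 members that rose in the 10 kb table in at least 1 line, 13 held AATAAA, 3 ATTAAA and 8 neither. Of the 11 that fell, 2 held AATAAA, 1 ATTAAA and 8 neither, and of the 56 tested but never called these numbers were 30, 8 and 18. A protein-coding gene on the same strand lay within the 10 kb region of 6 of the 24, 8 of the 11 and 24 of the 56. These are descriptions of the windows at the outermost annotated 3′ UTR ends and not poly(A) sites mapped by reads. A gene without a signal there can hold one at another end.

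In complex III, the 10 kb region of UQCRC2, core protein 2 (chr16:21995281-22005280), held no reads in 7 of the 9 controls. LNCaP controls held 0, 0 and 2 reads there and the knockdown libraries 9, 20 and 39 (lowest, median, highest). LNCaP95 controls held 0, 0 and 0 reads and the knockdown libraries 16, 33 and 42. In 22Rv1 the controls held 0, 0 and 6 reads and the knockdown libraries 14, 33.5 and 54. Every knockdown library was above every control of its line. The reads per read of the table were 27.9-fold higher in LNCaP, with a 95% counting interval of 7.56 to 233, and at least 21.5-fold higher in LNCaP95, where a floor of 3 reads stands for the 3 controls together. In 22Rv1 the log2 fold change was 2.62 ± 0.58 (adjusted p = 0.00049). These intervals and floors cover counting error only. The region holds no other annotated gene on its strand.

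UQCRB, the ubiquinone-binding subunit, held 0 reads in its 10 kb region in all 3 controls of LNCaP and of 22Rv1, and 0, 2 and 1 in those of LNCaP95. Knockdown libraries of LNCaP held 0, 6 and 16 reads (lowest, median, highest), those of LNCaP95 2, 10 and 19, and those of 22Rv1 3, 9 and 13. The groups did not overlap in 22Rv1 and overlapped in the other lines. The rise was at least 5.95-fold in LNCaP (adjusted p = 0.0025), 7.57-fold in LNCaP95 with a counting interval of 2.48 to 37.7 (adjusted p = 0.021), and at least 3.69-fold in 22Rv1 (adjusted p = 0.017). In LNCaP95 and 22Rv1 the call was lost with sh1 alone, and in 22Rv1 also in DESeq2. UQCRH, the hinge protein, rose from 11, 31 and 18 reads to 32, 47 and 95 in LNCaP, from 20, 8 and 13 to 77, 104.5 and 169 in LNCaP95, and from 7, 6 and 16 to 28, 72 and 82 in 22Rv1. Its log2 fold changes were 1.05 ± 0.31, 2.21 ± 0.34 and 1.41 ± 0.34.

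COX7C, a small accessory subunit of complex IV, held 2, 2 and 0 reads beyond its end in LNCaP95 controls and 44, 75 and 94 (lowest, median, highest) after knockdown, a log2 fold change of 4.77 ± 0.54 (adjusted p = 5.3e-12). In 22Rv1 it held 0, 5 and 3 reads against 25, 76.5 and 100, a change of 3.26 ± 0.46 (adjusted p = 1.0e-08). In LNCaP the controls held 4, 14 and 5 reads and the knockdown libraries 9, 16 and 57, which overlapped, and the rise of 1.32 ± 0.44 was lost with sh1 alone and in DESeq2. The difference between LNCaP95 and LNCaP was 3.48 ± 0.81 (adjusted p = 0.0047).

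ATP5A1, the alpha subunit of the ATP synthase, held 9, 9 and 7 reads beyond its end in LNCaP controls and 44, 102.5 and 153 after knockdown, a log2 fold change of 3.15 ± 0.32 (adjusted p = 5.7e-16). LNCaP95 controls held 27, 10 and 4 reads and the knockdown libraries 105, 157.5 and 236, a change of 2.68 ± 0.34 (adjusted p = 5.7e-10). In 22Rv1 the controls held 13, 35 and 43 reads and the knockdown libraries 82, 203 and 308. That change of 1.29 ± 0.25 (adjusted p = 5.3e-05) was smaller than in LNCaP by 1.81 ± 0.46 (adjusted p = 0.022) and smaller than in LNCaP95 by 1.39 ± 0.43 (adjusted p = 0.042). On the CPM scale the 22Rv1 groups overlapped, and the call was lost there with sh1 alone.

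NDUFS5 held 58, 73 and 60 reads beyond its end in LNCaP controls and 76, 122 and 228 after knockdown, 51, 64 and 43 against 166, 241.5 and 371 in LNCaP95, and 12, 12 and 57 against 78, 150.5 and 193 in 22Rv1. The fold changes were 0.66 ± 0.22, 1.36 ± 0.28 and 1.09 ± 0.26. SDHD held 9, 14 and 15 reads against 16, 36.5 and 55 in LNCaP, 9, 10 and 4 against 38, 57 and 79 in LNCaP95, and 11, 8 and 2 against 32, 61 and 95 in 22Rv1, with fold changes of 1.04 ± 0.36, 2.02 ± 0.39 and 1.71 ± 0.38. Neither gene's groups overlapped in any line, and both calls in LNCaP were lost with sh1 alone. The region of SDHD holds another coding gene on its strand, BCO2, and overlaps the span of SDHD's own 3′ UTR, so its reads need not lie past the gene. The source of these reads was not tested.

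**Figure D3:**
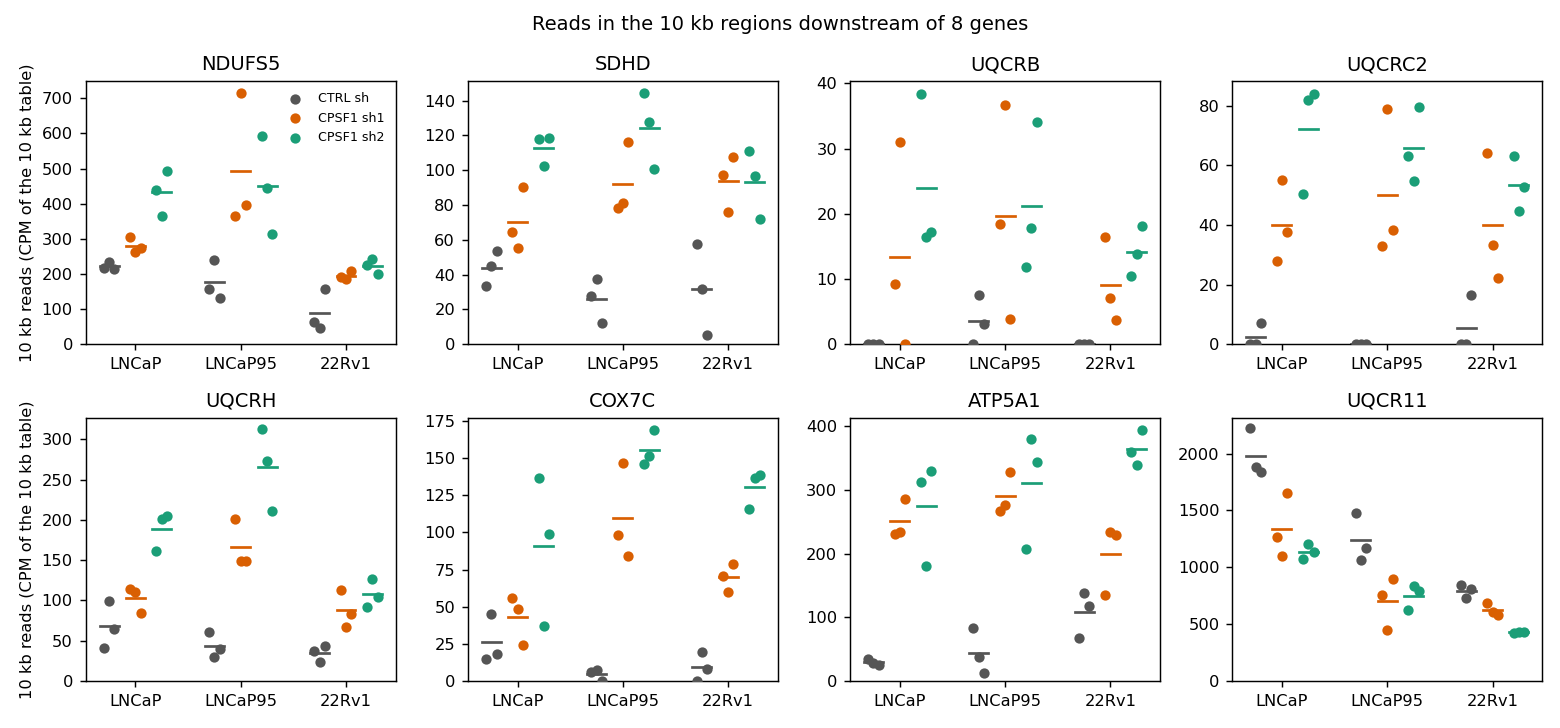
Level of the 10 kb downstream region in CPM of that table for 8 members in each library, by line and by hairpin (x axis), with bars for group means. For UQCRC2 2 of 3 controls in LNCaP and in 22Rv1 and all 3 in LNCaP95 are at 0, the highest control is at 16.5 CPM in 22Rv1, and every knockdown library lies above the controls of its line. UQCR11 runs the other way.

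In LNCaP95, where the 10 kb calls were most numerous, 4 further members that rose had no read in any of the 3 controls. ATP5G3 was at least 7.11-fold higher after knockdown, the ATP synthase subunit gene ATP5O at least 5.47-fold, NDUFAB1, the mitochondrial acyl carrier protein, at least 4.78-fold, and COX7A2 at least 3.03-fold. NDUFB11, a complex I accessory subunit, went from 1 read in the controls to 68 in the knockdown libraries, a ratio of 23.8 with a counting interval of 4.12 to 952. ATP5F1, subunit b of the ATP synthase, rose by 1.81 ± 0.43 in LNCaP and by 2.19 ± 0.38 in LNCaP95, and COX5B by 1.91 ± 0.38 and 1.93 ± 0.38. NDUFC2, a complex I subunit, rose in 22Rv1, by 2.15 ± 0.46, in a region whose reads can also be counted in introns of NDUFC2-KCTD14.

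Of the 11 members that fell in the 10 kb table in at least 1 line, 8 had another coding gene of the same strand in the region. UQCR11, the smallest complex III subunit, stood at 2225, 1878 and 1836 CPM in LNCaP controls and at 1074, 1169 and 1650 CPM after knockdown, at 1481, 1059 and 1168 against 449, 772 and 901 CPM in LNCaP95, and at 841, 728 and 805 against 420, 508 and 681 CPM in 22Rv1. The groups did not overlap, with fold changes of -0.69 ± 0.18, -0.83 ± 0.23 and -0.64 ± 0.18. With library sizes summed over the tables none of these passed, and in LNCaP95 the value turned to 0.089. NDUFB10, a complex I subunit, fell in LNCaP95 from 1052, 1029 and 1180 CPM to 243, 378 and 473 CPM and in 22Rv1 from 883, 909 and 978 to 343, 450 and 548 CPM, by 1.63 and 1.10 on the log2 scale, and these calls held under every scaling. In LNCaP the NDUFB10 groups overlapped, and its change in LNCaP95 was lower by 1.46 ± 0.28 (adjusted p = 0.00031). The regions of UQCR11 and NDUFB10 hold the coding genes MEX3D and MBD3, and RNF151 and TBL3, on the same strand.

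The balance of reads in the 10 kb region to 3′ UTR reads of the same gene was tested as a region-by-knockdown term in a fit over both tables with a term for each library. It rose for 7 of 78 members and fell for 1 in LNCaP, beside 8.39% and 1.95% of all genes, rose for 28 of 83 and fell for 6 in LNCaP95, beside 21.2% and 6.82%, and rose for 10 of 81 and fell for 1 in 22Rv1, beside 6.65% and 0.803%. The median change was 0.33, 1.01 and 0.27, against 0.30, 0.53 and 0.33 over all genes. ATP5A1, ATP5F1, NDUFS5, UQCRB and UQCRC2 rose in all 3 lines, 5 of 75 tested in each, beside 3.11% of all genes. The NDUFS5 ratio rose by 1.36 ± 0.33 in LNCaP, by 2.38 ± 0.35 in LNCaP95 and by 1.61 ± 0.33 in 22Rv1 on the log2 scale. In LNCaP the ratio of NDUFA4L2 rose by 3.91 ± 0.66, with a lower 3′ UTR level and a 10 kb region that was not called. With summed library sizes 18, 47 and 22 members rose and none fell. Without 22Rv1 CTRL sh replicate 2 or 3 the calls in 22Rv1 numbered 5 and 4.

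Some members fell in the 3′ UTR table and rose in the 10 kb table, both past the test. These were NDUFS5 and UQCRB in LNCaP, and ATP5A1, ATP5G2, COX7A2, NDUFA1, NDUFAF3, NDUFS5, UQCRB and UQCRC2 in LNCaP95. They are 2 of 78 members tested in both tables in LNCaP, beside 0.843% of all genes, and 8 of 83 in LNCaP95, beside 3.36%. In LNCaP95 11 members (13.3%) were called in both tables, beside 11.4%, and the other 3, NDUFA3, NDUFA4L2 and NDUFA7, fell in both. In 22Rv1 NDUFA4L2 alone was called in both and fell in both. Counts of UQCRC2 show the difference in size. In LNCaP95 its 3′ UTR level fell from 208, 256 and 236 CPM to 159, 182 and 192 CPM (lowest, median, highest), by 0.39 on the log2 scale (adjusted p = 0.024), a call lost with sh1 alone, while its 10 kb reads went from 0 to between 16 and 42 a library.

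**Figure D4:**
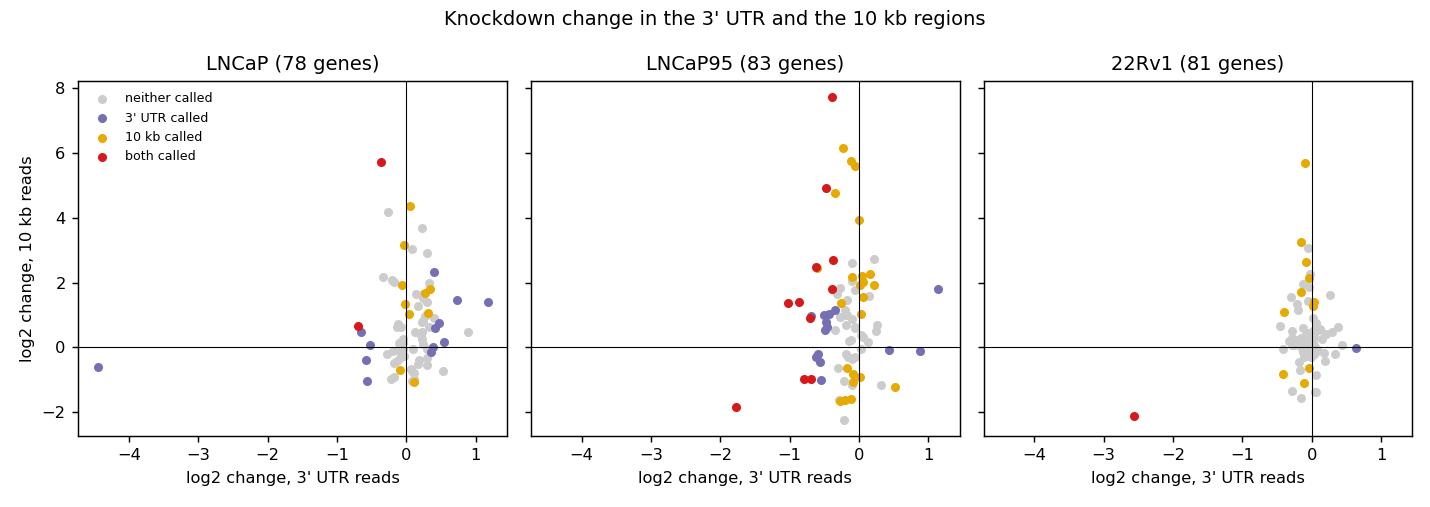
Log2 fold change in the 3′ UTR (x axis) against that in the 10 kb region (y axis) after CPSF1 knockdown, 1 point per member tested in both tables, for LNCaP (78), LNCaP95 (83) and 22Rv1 (81). In LNCaP95 8 members called in both tables lie in the upper left, lower in the 3′ UTR and higher in the 10 kb region. Fitted values of members without control reads are not bounds.

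In introns, 10 of 70 tested members rose and none fell in LNCaP, beside 14.3% called in either direction, 12 of 72 rose and 2 fell in LNCaP95, beside 23.8%, and 5 of 72 rose and none fell in 22Rv1, beside 4.37%. Of the 15 members that rose in any line, 4 rose in all 3, of 70 tested in each, beside 1.7% of all genes. SDHD rose by 1.64 ± 0.20, 2.45 ± 0.22 and 1.39 ± 0.20 in LNCaP, LNCaP95 and 22Rv1, and ATP5G2 by 1.24 ± 0.16, 1.53 ± 0.19 and 1.15 ± 0.18. The complex I subunit NDUFA10 rose by 0.86, 1.29 and 0.50, and NDUFAF6 by 0.40, 0.60 and 0.60. ATP5G2 had fewer 3′ UTR reads and more intron reads in LNCaP and LNCaP95. Intron regions here can hold sequence past a 3′ UTR. The models of ATP5G2 and NDUFAF6 run on beyond the 3′ UTR to the start of the 10 kb region. The SDHD model spans some of its own 10 kb pieces. Where the intron reads of these genes lie was not tested. Scaling by summed library sizes with 3′ UTR factors moved the LNCaP intron split to 4 higher and 2 lower and the median over all genes from 0.02 to -0.27. Without LNCaP CTRL sh replicate 1, 2 or 3 the intron calls in LNCaP numbered 5, 6 and 4, without LNCaP95 CTRL sh replicate 1 they numbered 8 in LNCaP95, and without 22Rv1 CTRL sh replicate 1 they numbered 8 in 22Rv1. In CDS 1 of 30 tested members rose and 1 fell in LNCaP and 2 of 32 fell in LNCaP95, beside 7.1% and 12.5% in either direction. In 22Rv1 edgeR called none of 30, with 5 at an unadjusted p under 0.05, and DESeq2 1, beside 1.01%.

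The control libraries compare the lines without knockdown. In the 3′ UTR table, 36 of 90 members were higher and 10 lower in LNCaP95 than in LNCaP, beside 19.1% and 20.2% of all genes. Between 22Rv1 and LNCaP 21 were higher and 17 lower in 22Rv1, beside 23.9% and 23.2%, and between 22Rv1 and LNCaP95 13 were higher and 31 lower in 22Rv1, beside 28.1% and 26.5%. Without TMM factors these splits became 54 and 1, 26 and 8, and 7 and 36, with the median over all genes moved to 0.32, 0.18 and -0.14. Without LNCaP CTRL sh replicate 1, 27 members differed between LNCaP95 and LNCaP. Over all reads 54, 39 and 44 of 91 members differed, beside 43.9%, 53.1% and 59.3% in either direction. The 3 comparisons share control libraries, and line and culture medium cannot be told apart for LNCaP95.

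By complex, 15 of 37 complex I, 5 of 10 tested complex IV and 6 of 15 complex V subunits were higher in LNCaP95 than in LNCaP, and 4, 0 and 1 were lower, beside 19.1% and 20.2% of all genes. COX6A1P2, a copy of the complex IV subunit gene COX6A1, set 22Rv1 apart, with 7.12, 16.9 and 26.5 CPM there against 132, 186 and 123 CPM in LNCaP and 286, 311 and 274 CPM in LNCaP95. It was lower in 22Rv1 by 2.99 and 3.97 on the log2 scale. COX6A1 stood at 479, 615 and 741 CPM in 22Rv1, 291, 426 and 304 CPM in LNCaP and 674, 784 and 621 CPM in LNCaP95. Reads of near-identical copies can be split between them, so the level of COX6A1P2 is uncertain. COX7A2L ran in the order LNCaP95 (143, 143 and 110 CPM), LNCaP (74.0, 78.3 and 68.2 CPM) and 22Rv1 (23.9, 42.8 and 40.0 CPM), and each pair of lines differed (0.84 ± 0.19 for LNCaP95 against LNCaP, -1.84 ± 0.20 for 22Rv1 against LNCaP95, and adjusted p = 0.00056 for 22Rv1 below LNCaP). NDUFA4L2 was highest in LNCaP and lowest in 22Rv1, -2.15 ± 0.17 apart.

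Higher in 22Rv1 than in LNCaP were the complex I subunits NDUFB8, at 192, 210 and 232 against 76.6, 82.0 and 83.0 CPM (1.40 ± 0.15), and NDUFA5 (1.04 ± 0.14), and ATP5J2 of the ATP synthase, at 687, 789 and 840 against 383, 306 and 334 CPM (1.19 ± 0.14). Higher in LNCaP95 than in LNCaP were NDUFA6 (1.13 ± 0.15), NDUFB3 (1.09 ± 0.34) and COX6A1 (1.02 ± 0.18). Of the c subunit genes, ATP5G1 was higher in 22Rv1 than in LNCaP95 by 1.05 ± 0.22 and ATP5G3 lower by 0.97 on the log2 scale. CYC1 was higher in 22Rv1 than in LNCaP95 by 0.95 ± 0.14, and NDUFB4 lower by 1.25 on the log2 scale. COX4I1, COX5B and COX6B1 of complex IV passed in none of the 3 comparisons, with differences between -0.19 and 0.23.

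**Figure D5:**
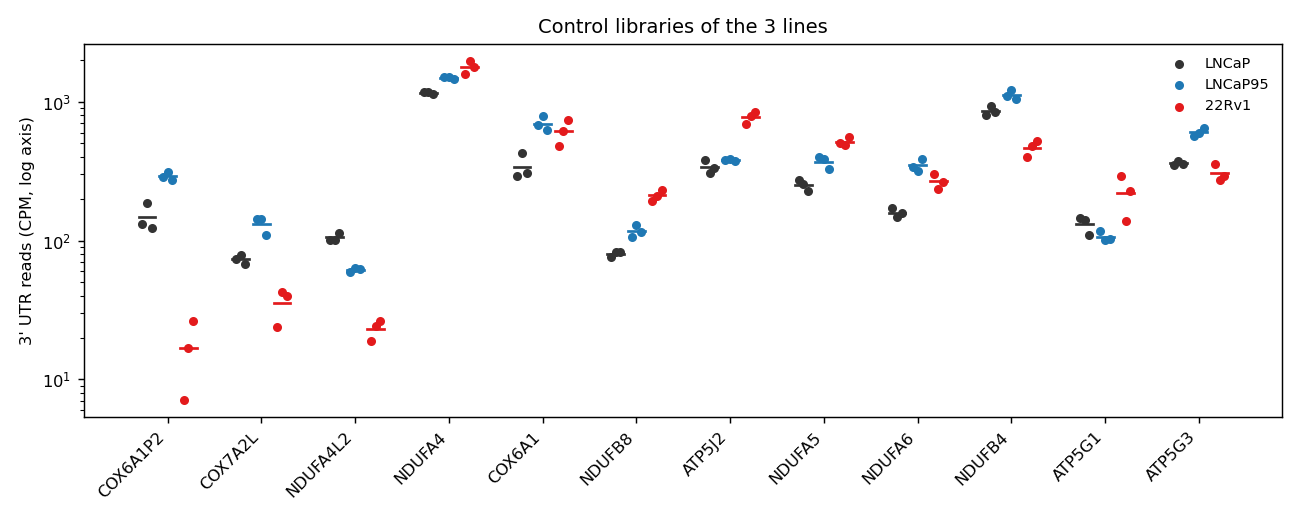
3′ UTR level in CPM (log axis) of 12 members in the control libraries (LNCaP black, LNCaP95 blue, 22Rv1 red), 1 point per library. COX6A1P2 in 22Rv1 (7.12 to 26.5 CPM) lies below both other lines, and COX7A2L lies highest in LNCaP95 and lowest in 22Rv1.

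The isoforms of complex IV known from muscle, lung or testis were almost without reads. COX4I2, COX6A2, COX6B2, COX7A1 and COX8C held 29, 61, 83, 30 and 70 reads over all tables and all 27 libraries. They were too low to be tested in the 3′ UTR or over all reads. Of the 5, 4 were tested in the 10 kb table in LNCaP, 3 in LNCaP95 and 4 in 22Rv1, and none was called there. Of their ubiquitous counterparts, COX4I1, COX6A1 and COX6B1 passed in the 3′ UTR table after knockdown in no line. Neither did COX7B, the counterpart of COX7B2. COX7A2 and COX8A fell in LNCaP95, by 0.48 (adjusted p = 0.0069) and 0.44 (adjusted p = 0.0099) on the log2 scale.

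Of 79 other genes of the pathway, 22 of 78 tested rose over all reads in LNCaP and 3 fell, beside 14% and 13.5% of all genes, 13 of 79 rose and 11 fell in LNCaP95, beside 17.6% and 16.8%, and none of 78 rose and 3 fell in 22Rv1, beside 4.58% and 2.99%. Their medians were 0.26, 0.07 and -0.06. Of these, 20 factors of mitochondrial DNA and RNA went 5 up and none down in LNCaP, 6 up and 1 down in LNCaP95, and none either way in 22Rv1, with fold changes above 0 for 19, 18 and 7. PNPT1, the mitochondrial polynucleotide phosphorylase, rose by 0.49 in LNCaP and 0.67 in LNCaP95. LRPPRC, which binds mitochondrial mRNA, and TFAM, a factor that packages mitochondrial DNA, rose in LNCaP95 by 0.43 and 0.45. The 21 assembly factors of complex IV went 5 up and 2 down in LNCaP, 1 up and 5 down in LNCaP95, and none up and 2 down in 22Rv1, and the 9 other assembly factors of complex I went 4 up and none down, 2 up and none down, and none up and 1 down. Regulators of mitochondrial biogenesis went 1 up of 8, then 2 up and 1 down of 9, with none called of 8 in 22Rv1.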

How the data were processed

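PAC-seq libraries of 3 human prostate cancer cell lines were analysed, 3 per group, with groups and replicate numbers taken from the sample titles. The authors deposited 4 tables of unnormalized read counts by gene (3′ UTRs with an extension downstream, introns, coding exons, and 10 kb beyond each gene without exons of the same strand). Per the submitters' processing notes and the study's methods, reads were mapped with HISAT2 2.1.0 to GRCh37 and counted on the gene's strand by their 3′-most base with Subread 2.0.3. Internal priming at A-rich sequence and neighbouring genes can enter the intron and 10 kb counts. No column was left unmapped (0 columns).

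Counts were tested by quasi-likelihood in edgeR 4.0.16 (R 4.3.3) on genes with a mean above 2 CPM over the libraries fitted, each table scaled by its own TMM factors, with Benjamini-Hochberg adjustment over all genes and a threshold of 0.05. Standard errors are the log2 fold change divided by the square root of F. Levels in CPM use factors over all 27 libraries, except those of CPSF1 and the marker genes, which use library size alone. Knockdown was fitted within each line (3 control, 6 knockdown libraries), and differences between lines over all libraries. The procedure was tested on simulated data. The replicates are called biological in the study's methods, and p-values measure the spread between these libraries. Correlations of same-numbered libraries overlapped those of other pairs in each line, and numbers were not treated as pairs. Ratios of low counts have exact 95% intervals, and a floor of 3 reads replaces 0 in a group.

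The members, the gene lists and the rule for named genes were chosen with earlier results of these data known. Named are members called alike in all lines, the 5 largest called changes per line and measure, the 5 largest between control lines, the differences between lines with the lowest p (up to 5), isoform pairs and 1 core subunit per complex. Poly(A) signals were read on the gene's strand from the GRCh37 reference. Alternatives were each hairpin alone, DESeq2 1.42.0, a stricter filter and none, other library scaling, a replicate block, and each library left out.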

Additional observations from a re-analysis of the deposited data

Results flagged for a closer look

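The following members were singled out because their response to CPSF1 knockdown differed between lines by a test of the difference itself, the line-by-knockdown term of edgeR's quasi-likelihood fit over the 27 libraries with adjustment over all genes. At most 5 with the lowest p are given for each pair of lines and each measure, and every value is the log2 fold change in the line named first minus that in the line named second. The pairs share libraries, so a gene that appears in more than 1 pair is not independent evidence.

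Between LNCaP95 and LNCaP in the 3′ UTR, NDUFA4L2 differed by 2.68, its fall being smaller in LNCaP95. ATP5B differed by -0.52, NDUFAF3 by -0.58, and NDUFB5 and ATP5G3 by -0.53 each. In the 10 kb regions the differences were 3.48 for COX7C, -1.46 for NDUFB10 and -1.35 for NDUFAF2. Over all reads they were 1.87 for NDUFA4L2, -0.58 for SDHA, -0.69 for ATP5G3, -0.68 for NDUFAF3 and -0.55 for NDUFA6.

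Between 22Rv1 and LNCaP in the 3′ UTR, the differences were 0.77 for NDUFAF3, -0.59 for ATP5G3, 0.80 for NDUFA13, 1.89 for NDUFA4L2 and -0.78 for ATP5F1. In the 10 kb regions ATP5A1 differed by -1.81 and NDUFC2 by 2.54. Over all reads they were -0.75 for ATP5G3, 1.52 for NDUFA4L2, -1.01 for NDUFAF2, -1.53 for COX7B2 and 0.63 for NDUFA13.

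Between 22Rv1 and LNCaP95 in the 3′ UTR, NDUFAF3 differed by 1.35, with groups that moved in opposite directions in both lines, NDUFB5 by 0.64, NDUFAF6 by -1.28, UQCRB by 0.53 and NDUFA7 by 0.73. In the 10 kb regions the differences were 1.71 for ATP5L, 1.32 for NDUFA7, -1.39 for ATP5A1 and -1.51 for ATP5F1. Over all reads they were 1.195 for NDUFAF3, -2.31 for COX7B2, 0.71 for NDUFA7 and for NDUFA3, and 0.60 for ATP5G2.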

How the results depend on the processing

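Counts of members called, higher and lower together, are given here with the number in the report in brackets. The share of all genes called under each setting is not given beside them. The cause of each change was not tested unless a smaller number of libraries or genes makes it. Under the alternatives 386 such results stayed within 1.5 times and 70 did not, and among single genes 4448 results kept their direction and side of the threshold, 463 no longer passed and 4 turned. With CPSF1 sh1 alone the counts were 43 [27] over all reads and 26 [16] in the 3′ UTR of LNCaP, 15 [25] in the 3′ UTR and 4 [14] in introns of LNCaP95, 2 [6], 0 [2] and 7 [12] over all reads, in the 3′ UTR and in the 10 kb regions of 22Rv1, 5 [8] and 3 [11] for the ratio in LNCaP and 22Rv1, and 1 [2] in CDS of LNCaP and of LNCaP95. With sh2 alone LNCaP gave 12 [27] over all reads, 7 [16] in the 3′ UTR and 6 [10] in introns. DESeq2 gave 10 [6] over all reads and 1 [0] in CDS of 22Rv1, 15 [6] for LNCaP95 against LNCaP in the 3′ UTR and 8 [4] for 22Rv1 against LNCaP95 in the 10 kb regions. Without a filter 1 [0] CDS call in 22Rv1 and 7 [11] differences over all reads between 22Rv1 and LNCaP95 were found. A filter of 2 CPM in every library, which tests fewer genes, gave 22 [34] in LNCaP95 for both the 10 kb regions and the ratio, 1 [2] in the 3′ UTR of 22Rv1 and 3 [5] for 22Rv1 against LNCaP.

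Scaling by summed library sizes and 3′ UTR factors, the counts were 27 [12] and 20 [12] in the 10 kb regions of LNCaP and 22Rv1, 18 [8] and 22 [11] for their ratios, 6 [10] in LNCaP introns, 14 [6] for LNCaP95 against LNCaP in the 3′ UTR and 1 [2] for 22Rv1 against LNCaP in the 10 kb regions. Without TMM factors they were 33 [12] and 24 [12], 18 [8] and 22 [11], and 6 [10] and 8 [5] for introns of LNCaP and 22Rv1, and the differences between lines were 13 [22], 5 [8] and 6 [11] over all reads and 2 [6], 3 [5] and 5 [8] in the 3′ UTR, in the order LNCaP95 against LNCaP, 22Rv1 against LNCaP and 22Rv1 against LNCaP95. In LNCaP95 the 10 kb change of UQCR11 turned to 0.089 with 3′ UTR factors and 0.24 without factors, that of NDUFA3 to 0.11 and that of NDUFA7 to 0.10 without factors, none past the threshold. The 10 kb share of member reads in LNCaP95, 2.11 times higher after knockdown, was 1.13 times higher as a share of the 10 kb table and 4.65 times as a median per gene.

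The correlation of same-numbered libraries ran from -0.28 to 0.19 in LNCaP, against -0.45 to 0.42 for different numbers. The ranges were -0.23 to 0.19 against -0.35 to 0.26 in LNCaP95, and -0.16 to 0.42 against -0.35 to 0.24 in 22Rv1. They overlapped in each line, and the numbers were not treated as pairs. With the replicate number as a block 30 of 33 counts stayed within 1.5 times and 3 differences between lines did not, 3 [6] for LNCaP95 against LNCaP and 2 [5] for 22Rv1 against LNCaP in the 3′ UTR and 1 [2] for the latter in the 10 kb regions.

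Leaving out 1 library at a time gave, for LNCaP, LNCaP95 and 22Rv1, 10 to 38, 22 to 36 and 4 to 17 over all reads, 5 to 23, 16 to 27 and 2 to 4 in the 3′ UTR, 8 to 15, 24 to 34 and 9 to 13 in the 10 kb regions, 6 to 11, 28 to 36 and 4 to 12 for the ratio, 4 to 10, 8 to 15 and 4 to 8 in introns and 1 to 2, 1 to 3 and 0 to 1 in CDS. Between control lines the ranges were 27 to 54, 30 to 48 and 34 to 45 in the 3′ UTR, and 44 to 63, 35 to 52 and 39 to 49 over all reads. Control libraries decided most of these. Without LNCaP CTRL sh replicate 1, 2 or 3 the LNCaP counts were 10, 17 and 14 over all reads, 5, 8 and 10 in the 3′ UTR and 5, 6 and 4 in introns, and 1 in CDS each time. Without LNCaP CTRL sh replicate 1, 27 members differed between LNCaP95 and LNCaP. Without LNCaP95 CTRL sh replicate 1 the counts were 16 in the 3′ UTR, 8 in introns and 1 in CDS. Without 22Rv1 CTRL sh replicate 1, the shallowest library, they were 17 over all reads, 4 in the 3′ UTR and 8 in introns, without its replicates 2 and 3 the ratio counts were 5 and 4, and without 22Rv1 CPSF1 sh2 replicate 3 the CDS count was 1. Several control regions of the 10 kb table held 0 to 3 reads in all, for which a rise is known only as a lower bound or with a wide counting interval.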

Other observations

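Intron reads of single members moved in ways not described above. The ATP synthase subunit gene ATP5H rose in introns of LNCaP by 1.94 ± 0.31 (adjusted p = 3.7e-05) and of LNCaP95 by 1.09 ± 0.34 (adjusted p = 0.020) in edgeR's quasi-likelihood test. COX7A2 rose there by 2.24 ± 0.74 and 1.47 ± 0.52. ATP5O fell in introns of LNCaP95 by 1.55 on the log2 scale (adjusted p = 0.0030), the line in which its 10 kb region went from 0 reads in 3 controls to 47 reads in 6 knockdown libraries. These genes were chosen after their values were seen.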
